A study of Mus musculus with 4 samples.

Results

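A set of 33 genes of cholesterol and fatty acid synthesis was followed in RNA-seq libraries of mouse embryonic stem (ES) cells. The cells were Smg6-deficient or normal. The genes were chosen by name from the known pathways, at a time when earlier results of these data were known. They are 33 of the 37224 genes in the deposited tables and comprise 18 enzymes of the sterol route, 6 sterol regulators and 9 enzymes of fatty acid synthesis. The groups were Smg6-deficient ES cells (2 libraries) and normal, wild-type ES cells (2 libraries), cells that the labels trace to the embryo. Smg6 cuts RNA in nonsense-mediated decay (NMD), the pathway that removes transcripts with a premature stop codon. The labels do not give the allele, the strain, the medium or the number of cell lines, so a difference between lines and an effect of Smg6 cannot be told apart. They also do not say that replicates were grown separately, and the p-values below therefore speak only of library-to-library spread.

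Cells make cholesterol from acetyl-CoA through mevalonate, isoprenoids, squalene and lanosterol, and make fatty acids from the same precursor through malonyl-CoA, with later elongation and desaturation. Both routes are controlled by the SREBP transcription factors, which Scap escorts from the endoplasmic reticulum to the Golgi for activation and which the Insig proteins hold back when sterols are plentiful. Dividing ES cells draw on both routes for membranes.

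All 33 genes had enough reads to be tested. Count totals were 155391181 and 137937779 in Smg6-deficient libraries and 137643993 and 130888768 in wild-type libraries. A level is given as CPM (the count relative to the TMM-scaled library size) for 1 gene across libraries, and as the authors' RPKM, which also divides by gene length, where genes are set beside each other. A call means an adjusted p under 0.05 in edgeR's quasi-likelihood test over 20895 genes, and each log2 fold change, with its standard error (SE), divides the Smg6-deficient level by the wild-type one. Smg6 itself had 13366 and 11642 counts in Smg6-deficient libraries and 13396 and 14071 in wild-type libraries, a log2 fold change of -0.21 that was not called (edgeR adjusted p = 0.089). A whole-gene count does not show the loss of part of a gene and so does not check the labels.

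The start sites of these genes are shown first, because SREBP targets are known to pair a sterol regulatory element with binding sites of the cofactors NF-Y (CCAAT box) and Sp1 (GC box). RefSeq promoter windows, 250 bases before to 50 bases after a start site in GRCm38.p6, were found for 26 of the 33 genes. The windows of 5 genes are printed: Hmgcs1, the only one of the 26 with the searched sterol element, and Lss, Ebp, Insig1 and Fasn, whose calls held under each alternative setting tried. In GENCODE M21 (GRCm38) these genes span chr13:119690379-119708260, chr10:76531588-76557138, chrX:8185329-8193512, chr5:28071363-28078662 and chr11:120805846-120824547, in the order just given. Capitals mark CCAAT on either strand (ATTGG on the opposite one) and the sterol element, and in Fasn 2 matches overlap as CCAATTGG.
Hmgcs1, chr13:119690101-119690400, plus strand: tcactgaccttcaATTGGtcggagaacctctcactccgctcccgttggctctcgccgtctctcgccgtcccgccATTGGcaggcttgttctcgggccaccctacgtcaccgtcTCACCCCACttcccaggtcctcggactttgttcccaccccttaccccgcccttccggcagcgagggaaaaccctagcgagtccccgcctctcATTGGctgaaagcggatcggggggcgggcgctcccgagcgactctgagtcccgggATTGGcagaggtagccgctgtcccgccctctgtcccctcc
Lss, chr10:76531355-76531654, plus strand: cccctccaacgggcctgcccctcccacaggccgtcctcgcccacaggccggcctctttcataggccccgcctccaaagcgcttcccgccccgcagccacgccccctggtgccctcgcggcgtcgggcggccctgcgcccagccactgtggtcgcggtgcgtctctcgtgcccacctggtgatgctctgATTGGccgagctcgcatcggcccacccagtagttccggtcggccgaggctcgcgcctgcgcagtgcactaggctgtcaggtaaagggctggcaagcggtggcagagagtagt
Ebp, chrX:8193463-8193762, minus strand: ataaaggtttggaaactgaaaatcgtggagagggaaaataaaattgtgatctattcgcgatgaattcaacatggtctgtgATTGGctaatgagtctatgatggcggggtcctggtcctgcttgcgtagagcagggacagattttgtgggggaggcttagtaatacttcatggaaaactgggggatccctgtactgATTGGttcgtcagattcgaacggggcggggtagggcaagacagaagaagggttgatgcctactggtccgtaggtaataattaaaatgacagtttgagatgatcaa
Insig1, chr5:28071162-28071461, plus strand: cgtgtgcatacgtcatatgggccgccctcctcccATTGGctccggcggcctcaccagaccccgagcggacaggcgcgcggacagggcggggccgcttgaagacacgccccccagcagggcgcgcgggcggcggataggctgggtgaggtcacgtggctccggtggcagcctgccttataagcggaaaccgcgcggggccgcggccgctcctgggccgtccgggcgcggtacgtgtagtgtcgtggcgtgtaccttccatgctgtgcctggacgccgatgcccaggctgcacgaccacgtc
Fasn, chr11:120824498-120824797, minus strand: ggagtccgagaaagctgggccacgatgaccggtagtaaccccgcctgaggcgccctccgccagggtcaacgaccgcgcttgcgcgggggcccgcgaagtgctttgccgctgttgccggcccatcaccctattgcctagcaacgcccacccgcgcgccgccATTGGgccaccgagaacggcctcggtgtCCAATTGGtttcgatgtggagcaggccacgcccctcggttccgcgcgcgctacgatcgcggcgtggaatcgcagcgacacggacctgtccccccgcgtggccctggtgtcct

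The letters TCACNCCAC, searched on both strands as a sterol regulatory element, occurred in the window of 1 of 26 genes (3.85%), against 1.44% of 27025 genes in the whole table. That match lay in Hmgcs1 and began 137 bases upstream of the start site. Only these letters within these windows were searched, so a missing match does not show that a gene lacks a sterol element. CCAAT was present for 14 of 15 sterol enzyme genes (93.3%), 4 of 5 regulators and 3 of 6 fatty acid genes, against 41.1% of all genes. The GC box GGGCGG was present for 14 of 15 sterol enzyme genes, 5 of 5 regulators and 2 of 6 fatty acid genes, against 38.2% of all genes. These background shares cover every gene with a window, expressed in these cells or not, and were not matched for base content. Whether the excess is particular to SREBP targets was not tested. A gene counted when any of its windows held the letters, and the 5 regulators had 10 windows. Of these windows 50.0% held CCAAT and 80.0% the GC box, against 37.4% and 35.7% of all windows. The composite element TGATGNAA, bound by Atf4 and its partners, was found for 2 of 26 genes (7.69%), against 4.51% of all genes. Genes with a CCAAT box went in both directions: Lss rose, Ebp and Insig1 fell, and Hmgcs1 was not called.

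Of the 33 genes, 7 rose and 8 fell in Smg6-deficient cells (21.2% and 24.2%), where 20.5% of all tested genes rose and 19.2% fell. Calls in either direction thus made up 45.5% of the set, close to the background of 39.7%. For 23 genes (69.7%) no library of one group fell within the range of the other, against 73.2% of all tested genes. Its median log2 fold change was 0.11, beside 0.0080 over all tested genes, and its members spanned -1.62 to 0.94. Of the 15 called genes, 8 (Lss, Nsdhl, Ebp, Sc5d, Insig1, Scap, Acaca and Fasn) kept their call under all 16 alternative settings.

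**Figure D1:**
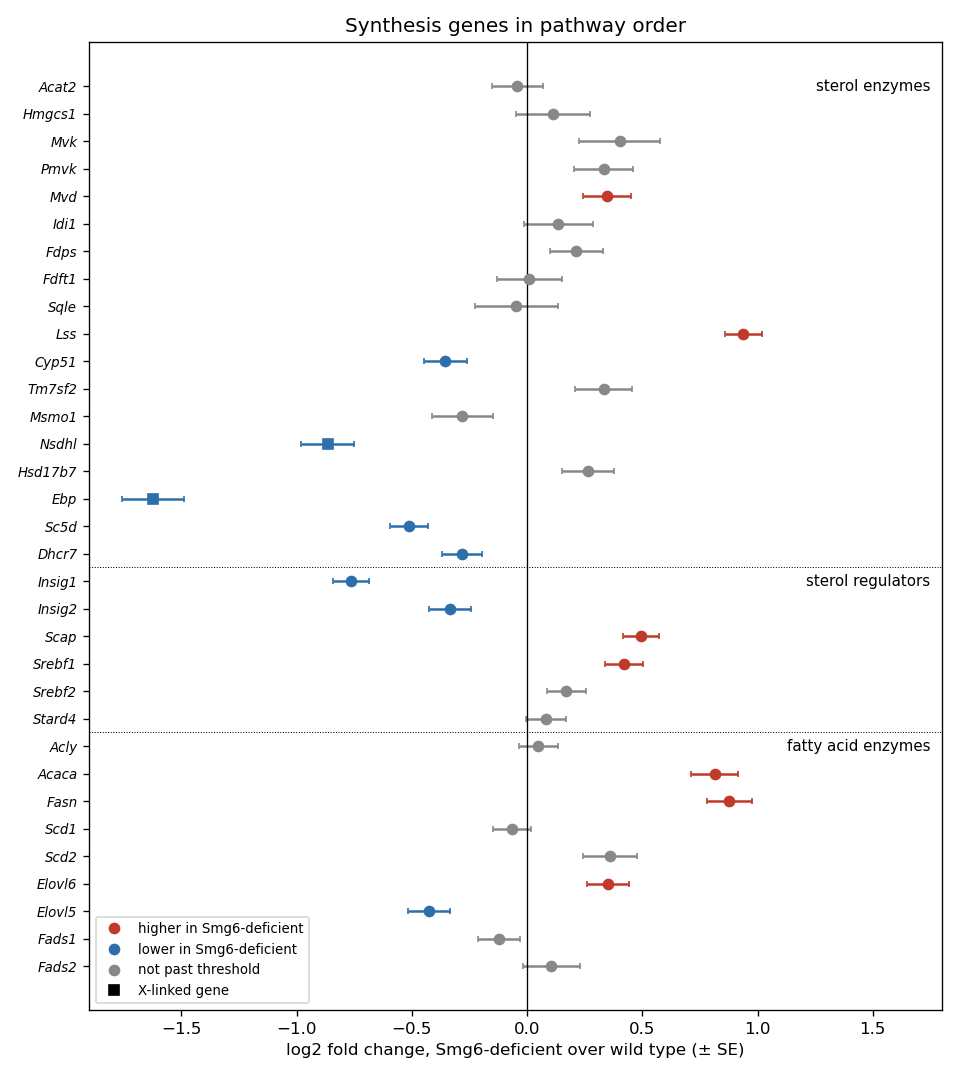
Log2 fold change (x axis, Smg6-deficient over wild type, ± SE, 2 libraries each) of the 33 genes, in pathway order from top to bottom. Red marks a higher and blue a lower call in Smg6-deficient cells, grey no call, and squares the X-linked genes; Lss stands at 0.94 between uncalled squalene enzymes above and mostly lower enzymes below, with Ebp at -1.62.

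In the mevalonate part of the sterol route, from Acat2 to Fdps, 1 of 7 genes was called, and it was higher. Over all tested genes, 39.7% were called and 20.5% rose. Mvd, which decarboxylates the mevalonate diphosphate, had 53.9 and 48.6 CPM in Smg6-deficient libraries and 43.2 and 37.4 CPM in wild-type libraries. It rose by a log2 fold change of 0.35 (SE 0.10, edgeR adjusted p = 0.037), a call lost under 8 of the 16 alternatives, among them leaving out Smg6-deficient replicate 1 (0.28, edgeR adjusted p = 0.24), Smg6-deficient replicate 2 (0.43, edgeR adjusted p = 0.059) or wild-type replicate 2 (0.23, edgeR adjusted p = 0.070). The kinases that act before it, Mvk and Pmvk, had log2 fold changes of 0.40 and 0.33, and Fdps, which joins isoprenoid units to farnesyl diphosphate, 0.21. The groups did not overlap for these genes, yet none of the 3 was called (edgeR adjusted p of 0.12, 0.081 and 0.18). Without wild-type replicate 1 all 3 were called higher, with log2 fold changes of 0.70, 0.54 and 0.35 (edgeR adjusted p of 0.0015, 0.0017 and 0.020).

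Hmgcs1, the synthase that makes HMG-CoA, was the most abundant sterol enzyme per length, at a mean of 83.2 RPKM over the 4 libraries. It had 337 and 321 CPM in Smg6-deficient libraries and 358 and 251 CPM in wild-type libraries. The wild-type libraries enclosed the Smg6-deficient ones, and the log2 fold change of 0.11 (SE 0.16) was not called (edgeR adjusted p = 0.61). Without wild-type replicate 1 it was called higher (log2 fold change 0.41, edgeR adjusted p = 0.0021). Acat2, the thiolase of the first step, and Idi1, an isomerase, had log2 fold changes of -0.04 and 0.14, with overlapping groups. Idi1 was the least abundant of the 33 genes, at a mean of 1.17 RPKM.

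The enzymes that make and oxidize squalene were not called. Fdft1, which makes squalene, had a log2 fold change of 0.01 (SE 0.14), and Sqle, which adds the epoxide, had -0.05 (SE 0.18). Sqle had 130 and 107 CPM in Smg6-deficient libraries and 145 and 99.5 CPM in wild-type libraries, so that each group held 1 high and 1 low library. Without wild-type replicate 2 Sqle was called lower (-0.31, edgeR adjusted p = 0.041).

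Lss, lanosterol synthase, was the sterol enzyme that rose most. It had 146 and 139 CPM in Smg6-deficient libraries and 76.4 and 72.1 CPM in wild-type libraries, with no overlap. Its log2 fold change was 0.94 (SE 0.080, edgeR adjusted p = 0.00046), a 1.91-fold rise, and lay between 0.72 and 0.99 over the alternatives. An antisense gene, 4930483K19Rik, overlaps a Lss exon, and the kit did not mark strand. That gene had 897 and 678 counts in Smg6-deficient and 407 and 342 counts in wild-type libraries, beside 22201 and 18726 for Lss in Smg6-deficient and 10691 and 9648 in wild-type libraries.

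After lanosterol, 5 of 8 enzymes fell and 0 were called higher, against 19.2% and 20.5% of all tested genes, and 2 of the 5 (Ebp and Nsdhl) are X-linked, where 56.7% of genes fell. Cyp51, the lanosterol demethylase, had 105 and 103 CPM in Smg6-deficient libraries and 142 and 123 CPM in wild-type libraries (log2 fold change -0.35, SE 0.093, edgeR adjusted p = 0.024). Sc5d, the desaturase that forms the sterol's C5 double bond, had 28.4 and 28.0 CPM in Smg6-deficient libraries and 41.0 and 39.5 CPM in wild-type libraries (log2 fold change -0.51, SE 0.083, edgeR adjusted p = 0.0040). Dhcr7, the reductase that acts on 7-dehydrocholesterol, had 60.4 and 54.5 CPM in Smg6-deficient libraries and 71.1 and 68.8 CPM in wild-type libraries (log2 fold change -0.28, SE 0.087, edgeR adjusted p = 0.039). In all 3 the libraries of the groups were separate.

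Cyp51 lost its call under 4 and Dhcr7 under 5 of the 16 alternatives, among them leaving out Smg6-deficient replicate 1 or replicate 2. The 3 other late enzymes on autosomes were not called. Tm7sf2, a sterol C14 reductase, had a log2 fold change of 0.33, Msmo1, a methyl sterol oxidase, -0.28, and Hsd17b7, a sterol ketoreductase, 0.27, each with separate groups (edgeR adjusted p of 0.074, 0.14 and 0.11). Without wild-type replicate 1, Tm7sf2 and Hsd17b7 were called higher (0.46 and 0.42, edgeR adjusted p of 0.011 and 0.0057), and without wild-type replicate 2, Msmo1 was called lower (-0.49, edgeR adjusted p = 0.00091).

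The 2 lowest sterol enzymes are both on the X chromosome. Ebp, the sterol isomerase, had 14.9 and 16.1 CPM in Smg6-deficient libraries and 53.4 and 42.0 CPM in wild-type libraries. It fell by 1.62 on the log2 scale (SE 0.13, edgeR adjusted p = 0.00040) to 0.325 of its wild-type level. Nsdhl, a dehydrogenase that removes a methyl group together with Msmo1 and Hsd17b7, had 26.9 and 25.7 CPM in Smg6-deficient libraries and 52.8 and 43.0 CPM in wild-type libraries. It fell by 0.86 on the log2 scale (SE 0.12, edgeR adjusted p = 0.0020).

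X-linked genes as a whole were lower: 590 of 1040 tested (56.7%) fell and 37 rose, with a median log2 fold change of -0.76. Nsdhl stood near that median, with 44.4% of X-linked genes at or below its value. Ebp lay 0.86 below the median, with 19.4% of X-linked genes at or below its value. Without these 2 genes, 2 of 16 sterol enzymes rose and 3 fell. The part of this X-wide difference in the 2 falls was not tested.

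**Figure D2:**
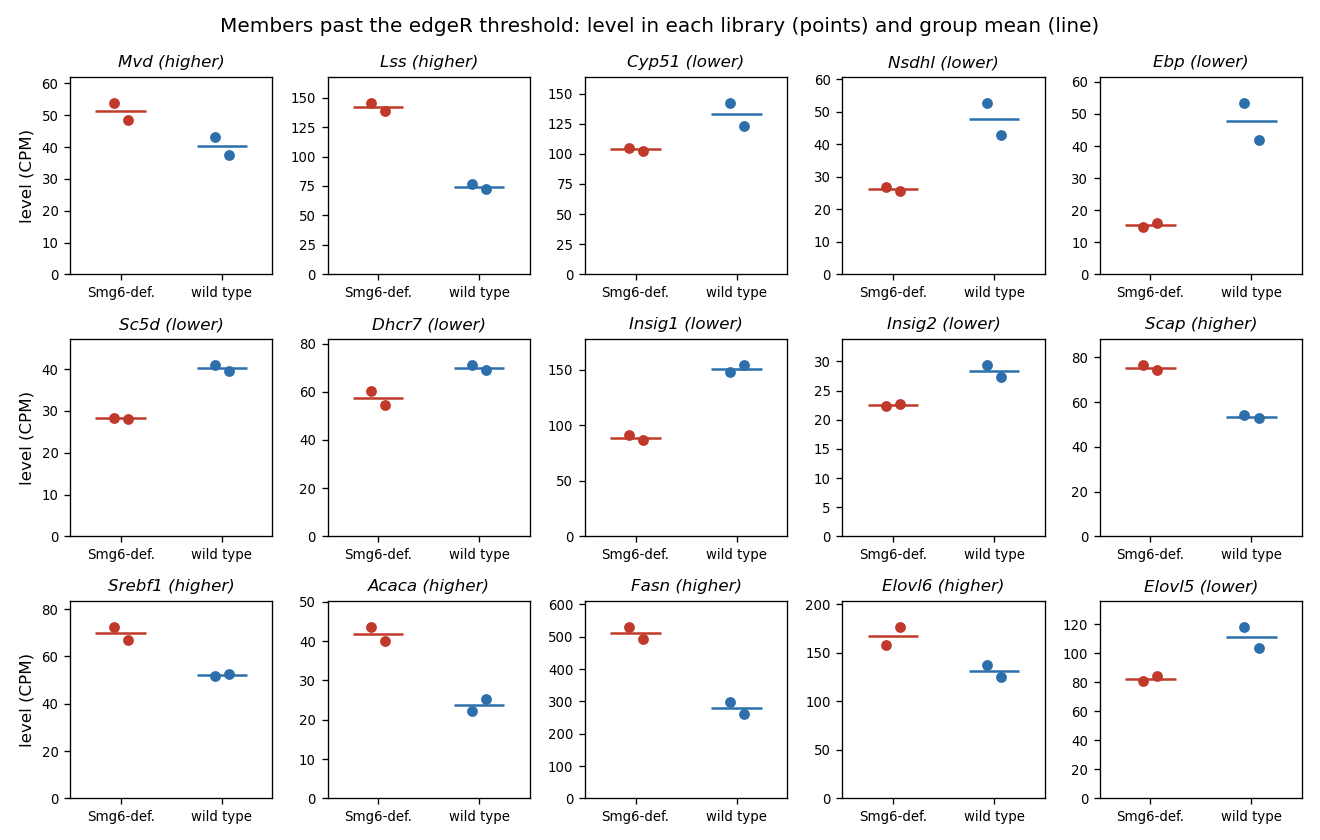
Level (y axis, CPM from 0) of the 15 called genes in each library, with Smg6-deficient libraries in red on the left, wild-type libraries in blue on the right and lines at the group means (n = 2 each). The groups do not overlap in any panel, and the gap is widest relative to level for Ebp, at 14.9 and 16.1 against 53.4 and 42.0 CPM.

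Among the regulators, both Insig genes fell while Scap and Srebf1 rose. Insig1, whose transcription is itself driven by SREBP and whose protein retains the Scap complex in the endoplasmic reticulum, had 91.2 and 86.8 CPM in Smg6-deficient libraries and 148 and 154 CPM in wild-type libraries. It fell by 0.76 on the log2 scale (SE 0.079, edgeR adjusted p = 0.00081). Insig2, which retains the same complex but is not a classic SREBP target, had 22.3 and 22.8 CPM in Smg6-deficient libraries and 29.4 and 27.4 CPM in wild-type libraries. It fell by 0.33 on the log2 scale (SE 0.091, edgeR adjusted p = 0.027). That call was lost under 5 of the 16 alternatives, among them leaving out Smg6-deficient replicate 1 or replicate 2.

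Scap, the escort, had 76.6 and 74.1 CPM in Smg6-deficient libraries and 54.2 and 52.8 CPM in wild-type libraries, and rose by a log2 fold change of 0.50 (SE 0.077, edgeR adjusted p = 0.0035). Srebf1, the SREBP gene tied mainly to fatty acid synthesis, had 72.5 and 67.0 CPM in Smg6-deficient libraries and 51.8 and 52.5 CPM in wild-type libraries. It rose by 0.42 (SE 0.082, edgeR adjusted p = 0.0080), a call lost under 3 of the 16 alternatives. Leaving out Smg6-deficient replicate 1 was among them (log2 fold change 0.37).

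Srebf2, the SREBP gene tied mainly to sterol synthesis, was the most abundant regulator at a mean of 62.4 RPKM. It had 406 and 372 CPM in Smg6-deficient libraries and 345 and 346 CPM in wild-type libraries, a log2 fold change of 0.17 (SE 0.085) that was not called (edgeR adjusted p = 0.15). Stard4, a cytosolic sterol carrier, had overlapping groups and a log2 fold change of 0.08. In all, 4 of 6 regulators were called, against 39.7% of all tested genes. Without Smg6-deficient replicate 1 the count was 2 of 6, in a fit that called 23.8% of all genes.

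In fatty acid synthesis, the enzymes that commit carbon to the chain and build it were higher in Smg6-deficient cells. Fasn, the synthase that assembles palmitate, had 531 and 494 CPM in Smg6-deficient libraries and 297 and 261 CPM in wild-type libraries, a log2 fold change of 0.88 (SE 0.098, edgeR adjusted p = 0.0011) or 1.84-fold. Acaca, the carboxylase that makes malonyl-CoA, had 43.6 and 40.0 CPM in Smg6-deficient libraries and 22.2 and 25.4 CPM in wild-type libraries, a log2 fold change of 0.81 (SE 0.10, edgeR adjusted p = 0.0017) or 1.76-fold. Of the 50-base windows of its annotated transcripts, 30.4% also occur in other genes. Per length Acaca was among the least abundant of the genes, at a mean of 3.44 RPKM in Smg6-deficient and 2.02 RPKM in wild-type libraries.

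Acly, which supplies cytosolic acetyl-CoA to both routes, had 434 and 429 CPM in Smg6-deficient libraries and 435 and 399 CPM in wild-type libraries, with a log2 fold change of 0.05 (SE 0.085) that was not called (edgeR adjusted p = 0.68).

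The elongases went opposite ways. Elovl6, which extends saturated and monounsaturated chains, had 159 and 177 CPM in Smg6-deficient libraries and 138 and 126 CPM in wild-type libraries and rose by a log2 fold change of 0.35 (SE 0.093, edgeR adjusted p = 0.024). Its call was lost under 4 of the 16 alternatives. Among these, a fit that corrected for gene length gave 0.25 (edgeR adjusted p = 0.078), and one that left out Smg6-deficient replicate 2 gave 0.28. Elovl5, which extends polyunsaturated chains, had 80.8 and 84.4 CPM in Smg6-deficient libraries and 118 and 104 CPM in wild-type libraries and fell by 0.43 on the log2 scale (SE 0.092, edgeR adjusted p = 0.012). Leaving out Smg6-deficient replicate 1 (edgeR adjusted p = 0.096) or replicate 2 (0.053) ended the call.

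Of the 4 fatty acid desaturases of the set, 0 were called, against 39.7% of all tested genes. Scd2, the Δ9 desaturase and the most abundant of the 33 genes per length at a mean of 96.2 RPKM, had 706 and 686 CPM in Smg6-deficient libraries and 602 and 483 CPM in wild-type libraries. Its groups were separate, and its log2 fold change of 0.36 (SE 0.12) missed the threshold (edgeR adjusted p = 0.0505). It was called without wild-type replicate 1 (log2 fold change 0.54, edgeR adjusted p = 0.00048). Its paralog Scd1 had 139 and 135 CPM in Smg6-deficient libraries and 137 and 149 CPM in wild-type libraries (log2 fold change -0.06, SE 0.082). Fads1 and Fads2, the Δ5 and Δ6 desaturases of polyunsaturated fatty acids, had log2 fold changes of -0.12 and 0.11 with overlapping groups.

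Genes with related roles were also set against each other within a library, and for all 5 pairs the groups did not overlap. For single genes in CPM, groups were separate in 73.2% of all tested genes, and no such share is given for ratios. The ratio of Elovl5 to Elovl6 in RPKM was 0.861 and 0.806 in Smg6-deficient libraries, against 1.45 and 1.40 in wild-type libraries, so that the more abundant elongase differed by genotype. The ratio of Insig1 to Insig2 was 5.26 and 4.90 in Smg6-deficient libraries and 6.47 and 7.26 in wild-type libraries. The ratio of Scd2 to Scd1 was 4.50 in both Smg6-deficient libraries and 3.89 and 2.87 in wild-type libraries, where the libraries differed more from each other. The ratio of Srebf2 to Srebf1 was 6.32 and 6.27 in Smg6-deficient libraries and 7.53 and 7.45 in wild-type libraries. That of Fads2 to Fads1 was 1.13 and 1.01 in Smg6-deficient libraries and 0.965 and 0.865 in wild-type libraries. These ratios were not tested: with 2 libraries a group an exact permutation test cannot go below p = 0.33.

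**Figure D3:**
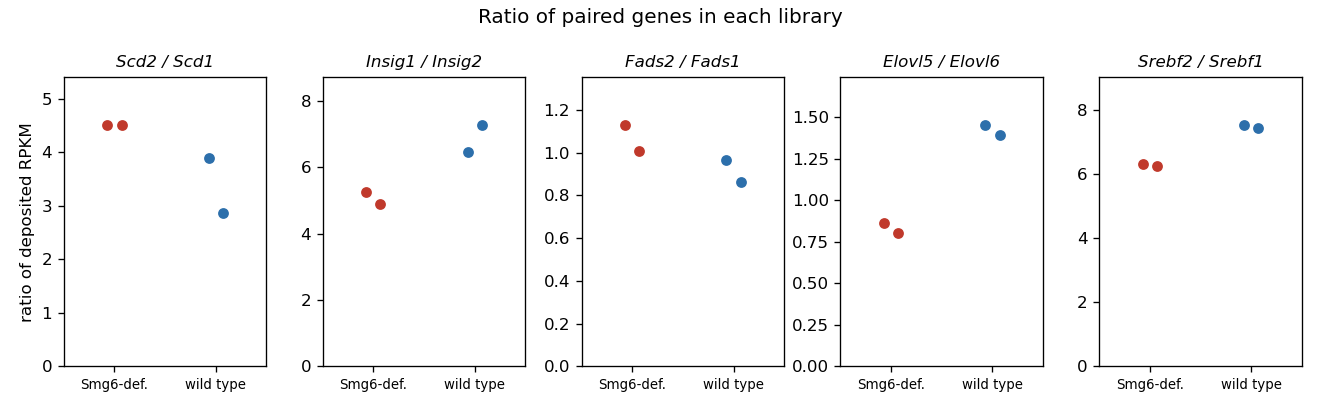
Ratio of the deposited RPKM of 5 gene pairs (y axes from 0) in each Smg6-deficient library (red, left) and each wild-type library (blue, right). Elovl5 over Elovl6 lies at 0.861 and 0.806 in Smg6-deficient and 1.45 and 1.40 in wild-type libraries.

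Set side by side, the sterol enzymes had 2 of 18 genes higher and 5 lower (11.1% and 27.8%), and the fatty acid enzymes 3 of 9 higher and 1 lower (33.3% and 11.1%), against 20.5% and 19.2% of all tested genes. Both X-linked genes of the set, Ebp and Nsdhl, are among the sterol falls, and 56.7% of X-linked genes fell. Without them 2 of 16 sterol enzymes were higher and 3 lower (12.5% and 18.75%). Medians over all genes of a group were close, at 0.06 for sterol enzymes, 0.13 for regulators and 0.11 for fatty acid enzymes. The summed level of the fatty acid enzymes was 2219 and 2154 CPM in Smg6-deficient libraries and 1869 and 1671 CPM in wild-type libraries, with no overlap. That of the sterol enzymes was 1251 and 1169 CPM in Smg6-deficient libraries and 1354 and 1067 CPM in wild-type libraries, which enclosed them. Among the fatty acid enzymes, Fasn (mean 512 CPM in Smg6-deficient, 279 in wild-type libraries) and Scd2 (696 and 542 CPM) differed most in mean level. Scd2 was not called, and 5 of the 9 enzymes were not. Means of Scd1, Elovl5 and Fads1 were lower in Smg6-deficient libraries. No test between the branches was made, since genes of a branch are not replicates.

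The libraries of a group differed in their sterol enzyme levels. All 18 sterol enzymes were higher in wild-type replicate 1 than in replicate 2, by a median of 0.28 on the log2 scale, against 0.0002 over all tested genes. The largest such gaps were those of Sqle, Mvk and Hmgcs1 (0.54, 0.52 and 0.51), while Lss, Sc5d and Dhcr7 had gaps of 0.08, 0.05 and 0.05. The Smg6-deficient libraries differed by a median of 0.07, with 15 of 18 sterol enzymes higher in replicate 1. Without wild-type replicate 1, 8 sterol enzymes were higher and 5 lower with a median of 0.27, in a fit that called 25.9% of all genes higher and 22.8% lower. Without wild-type replicate 2, 1 was higher and 7 lower with a median of -0.17, beside 23.0% and 21.9% of all genes. With 1 Smg6-deficient library the calls fell over all genes too: 1 sterol enzyme was higher and 3 were lower, and 4 of all 33 genes were lower, beside 13.0% higher and 10.8% lower of all genes without replicate 1 and 13.4% and 10.6% without replicate 2. Without wild-type replicate 1, 14 of all 33 genes were higher, beside the 25.9% of all genes. For the fatty acid enzymes, 6 of 9 were higher in wild-type replicate 1, by a median of 0.12.

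**Figure D4:**
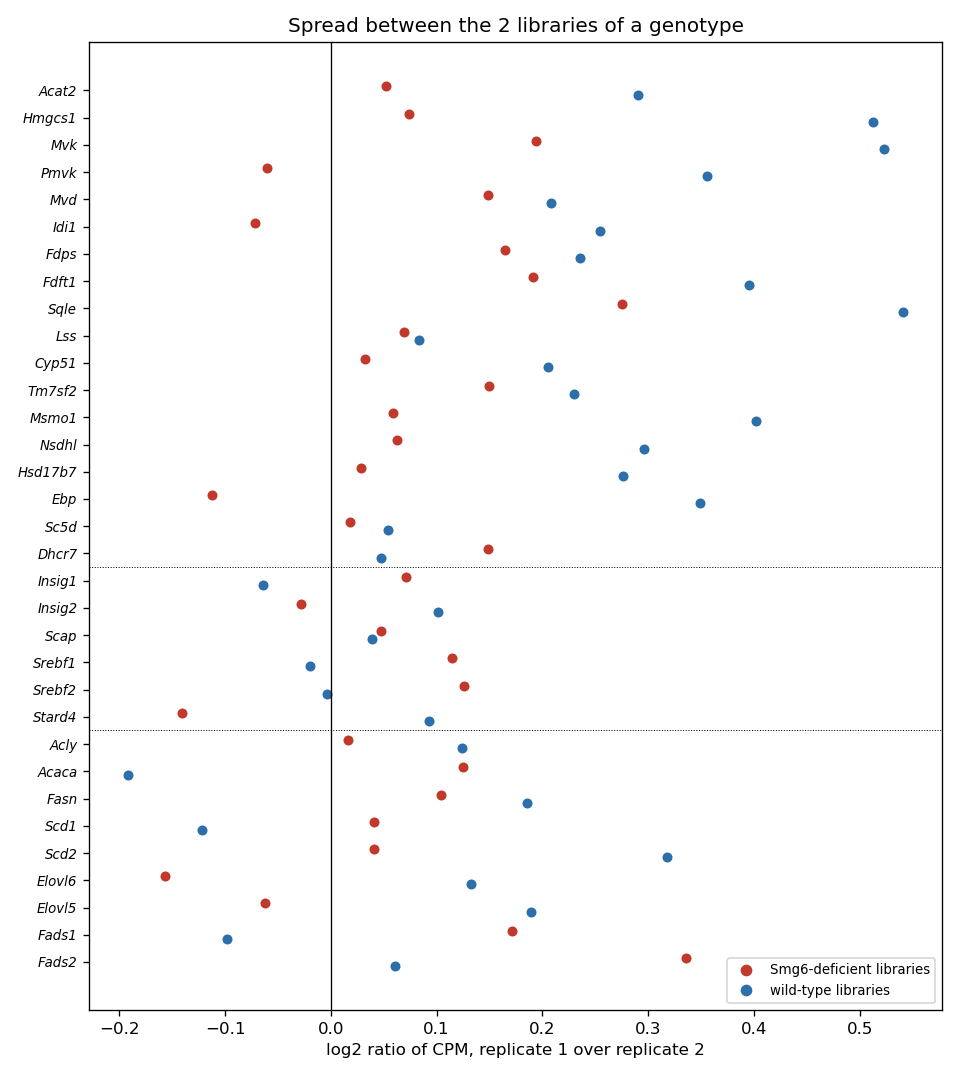
Log2 ratio of CPM in replicate 1 over replicate 2 (x axis) for each gene, in Smg6-deficient (red) and wild-type (blue) libraries, in pathway order. Blue points of all 18 sterol enzymes lie right of 0 (median 0.28), and those of the regulators scatter around 0.

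Marker genes of other cell types differed between the libraries too, and in bulk RNA fewer cells of a type and less RNA per cell cannot be told apart. Calls of markers are to be read beside the 20.5% of all tested genes that rose and the 19.2% that fell. Of 12 endoderm markers, 10 rose and 1 fell, and they summed to 887 to 1515 CPM in Smg6-deficient and 88.8 to 112 CPM in wild-type libraries. Of these, Ttr was at 0 in 1 wild-type library, and Afp and Apoa1 stayed below 1 CPM throughout. The endoderm sum of Smg6-deficient replicate 2 was 1.71 times that of replicate 1. Of the 7 genes called higher, Elovl6 was higher in replicate 2 (159 and 177 CPM) and the other 6 were higher in replicate 1. Of the 8 called lower, 3 were higher in replicate 2 and 5 in replicate 1. Smg6-deficient replicate 1 was also the higher for 26 of all 33 genes and for 10922 of 20895 tested genes. Of 10 fibroblast markers, 3 were higher and 0 lower, and they summed to 1186 to 1300 CPM in Smg6-deficient and 791 to 1059 CPM in wild-type libraries, the higher wild-type value being that of replicate 1. Of 10 ES cell markers, 2 were higher and 6 lower, with sums of 3488 to 3566 CPM in Smg6-deficient and 4462 to 5363 CPM in wild-type libraries, again with replicate 1 the higher of the wild type, and all 10 were counted in every library. The part of these cell types in the results was not tested.

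An NMD transcript is annotated for 6 of the 33 genes in GENCODE M21. Of these, Mvd rose and Dhcr7 fell, while Fdft1, Tm7sf2, Scd2 and Fads1 were not called. Among all tested coding genes, 33.3% of 4152 with such a transcript rose, against 20.7% of 12303 without one. The genes with the largest rises here, Lss, Fasn and Acaca, have no annotated NMD transcript. A missing annotation does not show that NMD leaves a gene untouched. The part of NMD in these results was not tested.

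Some of these genes share sequence with others, so that 50-base reads may not have been assigned to the right copy. Of the 50-base windows in its annotated transcripts, Acat2 shared 39.1% with other genes, among them Acat3 and Tcp1. Acat3 had 13609 and 11590 counts in Smg6-deficient and 13533 and 10053 in wild-type libraries, and Tcp1 had 127729 and 107903 counts in Smg6-deficient and 122133 and 96789 in wild-type libraries. Fdft1 shared 26.5%, Fdps 26.2% and Idi1 25.3%, and their levels, like that of Acaca, are uncertain. Such shares count sequence and not reads, so they do not give the size of an error in a level. On the same strand, Tm7sf2 overlaps Vps51 and shared 9.87% of its windows. Vps51 had 3659 and 3127 counts in Smg6-deficient and 2415 and 2329 in wild-type libraries. On the opposite strand, Fdft1 overlaps Ctsb, Cyp51 overlaps Akap9 and Srebf1 overlaps Rai1. Counts of Ctsb were 44192 and 37297 in Smg6-deficient and 52188 and 49859 in wild-type libraries. Those of Akap9 were 14489 and 13023 in Smg6-deficient and 6927 and 9051 in wild-type libraries. Those of Rai1 were 5234 and 4134 in Smg6-deficient and 4021 and 3826 in wild-type libraries. Scap overlaps 5830462I19Rik, which had 1880 and 1614 counts in Smg6-deficient and 1144 and 1190 counts in wild-type libraries, and shared 9.96% of its windows. Fasn, Ebp, Nsdhl, Elovl5, Insig2 and Fads1 shared none, Lss shared 1.86%, and Scd1 and Scd2 shared 4.56% and 3.97% with members of their family.

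Other genes of the same pathways were counted by direction, to be read beside the 20.5% of all tested genes that rose and the 19.2% that fell. Of 10 genes that process SREBP or turn over its regulators, 0 rose and 4 fell, among them the site-2 protease Mbtps2 (log2 fold change -0.77). Mbtps2 is X-linked, and 56.7% of X-linked genes fell. Fbxw7, which marks nuclear SREBP for breakdown, and Erlin1, a membrane scaffold, also fell (-0.41 and -0.33). Of 12 genes of sterol sensing, transport and storage, 3 rose and 3 fell. Mylip, a ubiquitin ligase induced by the sterol sensor LXR, had 5.55 and 5.07 CPM in Smg6-deficient libraries and 10.3 and 10.7 CPM in wild-type libraries and fell by 0.99 on the log2 scale. Lpcat3, which remodels phospholipids, and Nr1h2, an LXR gene, rose by 0.50 and 0.34, and the lysosomal carrier Npc2 fell by 0.34 on the log2 scale.

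The isoprenoid branch, which leads from mevalonate products to ubiquinone, dolichol and prenylated proteins, had 6 of 9 genes higher and 1 lower, against 20.5% and 19.2% of all tested genes, with a median of 0.37. Pdss2 and Pdss1, the subunits that build the ubiquinone side chain, rose by log2 fold changes of 1.13 and 0.72. Pggt1b, a prenyltransferase subunit, rose by 0.73 and Dhdds, a dolichol synthesis enzyme, by 0.37. Pdss2 had 18.99 and 19.49 CPM in Smg6-deficient libraries and 9.23 and 8.31 CPM in wild-type libraries. An NMD transcript is annotated for Pdss2, Pdss1 and Pggt1b, but not for Dhdds. Among all tested coding genes, 33.3% with such a transcript rose, against 20.7% without one. The part of NMD transcripts in these rises was not tested.

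Of 27 tested genes of fatty acid supply, elongation and activation, 4 rose and 12 fell, against 20.5% and 19.2% of all tested genes, with a median of -0.28. Acsl1, which activates long-chain fatty acids, had 25.1 and 24.8 CPM in Smg6-deficient libraries and 57.1 and 55.9 CPM in wild-type libraries and fell by 1.18 on the log2 scale. The elongases Elovl4 and Elovl2 fell by 1.35 and 0.94, and Hsd17b12, the ketoreductase of elongation, fell by 0.55. Of 16 genes of fatty acid oxidation, 3 rose and 4 fell: Cpt1c and Cpt1b rose by 0.81 and 1.03, and Hadh and Cpt2 fell by 0.61 and 0.60 on the log2 scale. Each gene of these further lists that is given as risen or fallen passed the edgeR threshold.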

How the data were processed

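Per the labels' protocols, total RNA went into TruSeq v2 libraries, a kit type that does not mark strand, read as single 50-base reads. Per the submitters' processing notes, TopHat2 2.0.9 placed reads on mm10; which counter and annotation followed is not given in the sources used here. The authors deposited whole-number read counts and RPKM values for each gene and library. The RPKM denominator of wild-type replicate 2 was 1.02 times that of replicate 1, although its count total was 0.951 times, so the 2 units scale libraries differently.

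GENCODE M21, on GRCm38 (another name of mm10), gave symbols, positions and transcript types and matched 35449 of 37224 identifiers and all 33 genes. Counts were filtered (filterByExpr, minimum count 10), TMM-scaled and tested two-sided with edgeR 4.0.16 (R 4.3.3), with genotype as the only term and Benjamini-Hochberg adjustment over 20895 genes. The step was tested on simulated data. SE is the absolute log2 fold change over the square root of F. Replicates differed beyond counting noise (chi-square over its degrees of freedom: 32.1 for Smg6-deficient and 56.7 for wild type). Alternatives were DESeq2 1.42.0, limma 3.58.1 on counts or log2(RPKM + 1) and log2(RPKM + 0.1), other scalings and filters, the replicate block, a gene length correction and leaving out each library. The genes, the lists and the rule for naming genes were chosen with earlier results of these data known. The rule gave libraries' values for called genes and the 2 most abundant of each group, and up to 4 genes with the smallest adjusted p of each other list; 1 gene that it names is not reported here.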

Additional observations from a re-analysis of the deposited data

How the results depend on the processing

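Of 528 values (33 genes under 16 alternatives), 451 kept direction and side of the threshold, 31 lost the call, 24 gained one and 22 changed sign; the cause was not tested. The 22 sign changes were all in genes that were not called in the main test nor under that alternative. They were, as log2 fold changes, Fdft1 under DESeq2 size factors (-0.00153), library size alone (-0.0465), autosomal TMM (-0.0114), the 50-count filter (-0.0325), the DESeq2 Wald test (-0.00155) and limma-trend with an RPKM pseudocount of 1 (-0.0245) or 0.1 (-0.025); Acly under library size alone (-0.0084), the gene length correction (-0.0288) and the same with the replicate block (-0.027); Stard4 under the gene length correction without (-0.0048) and with the replicate block (-0.0058); and Acat2 under the length correction with the block (0.0053). Leaving out each library gave ranges of -0.20 to 0.12 for Acat2, -0.14 to 0.41 for Hmgcs1, -0.0055 to 0.28 for Idi1, -0.20 to 0.23 for Fdft1, -0.31 to 0.26 for Sqle, -0.0324 to 0.125 for Acly and -0.0621 to 0.275 for Fads2.

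These 4 fits, in which the lone library of a group is assumed to vary like the pair of the other, gave 5141 to 10477 calls over all genes (8289 with all libraries), 5 to 14 of the 33 genes higher and 4 to 10 lower, 1 to 8 sterol enzymes higher and 3 to 7 lower, 2 to 4 regulators called, 2 to 4 fatty acid enzymes higher and 0 to 1 lower. Medians ran from -0.17 to 0.27 for sterol and from 0.0505 to 0.275 for fatty acid enzymes. Both limma-trend fits on RPKM called 4 genes higher and 5 lower, with 1 sterol enzyme higher, 3 lower and 2 regulators, beside 28.0% of all genes called. Library size alone, no filter and the 50-count filter each left 1 sterol enzyme higher. The gene length correction gave 4 sterol enzymes higher and a fatty acid median of 0.25.

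Replicate numbers are shared between the groups, but the labels do not say that they pair libraries; deviations of same-numbered libraries correlated at 0.18 across 12442 genes, with 2 pairs. With the replicate block 11 genes were higher, 5 of them sterol enzymes, beside 24.3% of all genes. With the block and the length correction 12 were higher, with 5 sterol and 5 fatty acid enzymes and a fatty acid median of 0.25. With 2 libraries a group, a missed call does not show that a gene did not differ. At 1.17 RPKM, Idi1 still had 564 to 756 counts a library, the lowest of the 33 genes per length.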

Other observations

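Across the fatty acid elongase family, members moved apart, a pattern picked after the values were seen. Elovl1 had 19.6 and 21.8 CPM in Smg6-deficient libraries and 15.3 and 15.1 CPM in wild-type libraries (log2 fold change 0.45, SE 0.10, edgeR adjusted p = 0.014). Elovl6 rose as well. Elovl4 had 7.75 and 7.78 CPM in Smg6-deficient libraries and 16.9 and 22.6 CPM in wild-type libraries (log2 fold change -1.35, SE 0.16, edgeR adjusted p = 0.0012). Elovl2 had 8.37 and 8.20 CPM in Smg6-deficient libraries and 14.7 and 17.2 CPM in wild-type libraries. Elovl7 had 6.25 and 6.87 CPM in Smg6-deficient libraries and 11.5 and 14.0 CPM in wild-type libraries (log2 fold change -0.96, edgeR adjusted p = 0.0027). Elovl4, Elovl2 and Elovl7 fell, as did Elovl5, and Elovl3 had too few counts to test. Over all tested genes, 20.5% rose and 19.2% fell. Whether the chain type of an elongase goes with its direction was not tested.

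Acacb, the mitochondrial paralog of Acaca whose malonyl-CoA restrains fatty acid import, had 56.6 and 50.9 CPM in Smg6-deficient libraries and 29.5 and 35.1 CPM in wild-type libraries (log2 fold change 0.73, SE 0.11, edgeR adjusted p = 0.0033). Mlxipl, which encodes the carbohydrate-responsive factor ChREBP, had 10.2 CPM in both Smg6-deficient libraries and 4.56 and 5.55 CPM in wild-type libraries (log2 fold change 1.01, SE 0.14, edgeR adjusted p = 0.0022). An NMD transcript is annotated for Mlxipl but not for Acacb, and the part of NMD in these rises was not tested. Thrsp, a lipogenic gene, had 0.767 and 0.911 CPM in Smg6-deficient libraries and 1.87 and 2.89 CPM in wild-type libraries and fell by 1.51 on the log2 scale (SE 0.26, edgeR adjusted p = 0.0053).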
